A study of Mus musculus with 12 samples.

Results

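The response to tunicamycin (TM) was measured in livers of Atf6a-/- mice, which lack the ER stress sensor ATF6α. It was taken as 3 Atf6a-/- animals killed 8 h after TM against 3 Atf6a-/- animals killed 8 h after vehicle, so 6 of the 12 arrays of the series. The injections were intraperitoneal, of 2 mg/kg TM dissolved in 150 mM dextrose or of the dextrose alone. The other 6 arrays, of wild-type (Atf6a+/+) animals given the same vehicle or TM for the same time, 3 each, served to estimate the spread and to show where the response differed. All animals were of variable age and sex, were fasted before they were killed and gave 1 liver homogenate each, so that all liver cell types were read together. The labels number the animals but name neither strain, litter nor cohort. How the allele was made is not given in the sources used here, so whether its loss reached all liver cells alike cannot be told from them.

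TM blocks the first step of N-linked glycosylation, so that newly made secretory proteins misfold in the ER. Sensors in the ER membrane then start the unfolded protein response (UPR). PERK phosphorylates eIF2α, which slows translation in general but favours that of ATF4, the factor of the integrated stress response. IRE1α splices the mRNA of XBP1, and ATF6α is cut in the Golgi to release a transcription factor for ER chaperones. In hepatocytes, which make most plasma proteins and handle lipid, glucose and xenobiotics, the response is known to reach metabolic genes as well.

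The arrays were Affymetrix mouse expression arrays, and each value is an RMA signal on the log2 scale, where 1 unit is a 2-fold difference. Of 45037 probesets tested, 34945 name 1 gene. A gene is given here by its brightest such probeset, which makes 18193 genes. Higher and lower mean an adjusted p under 0.05 (limma, Benjamini-Hochberg over all probesets) and over 1.5-fold. Unless another quantity is named, a number after a gene is its log2 difference, TM minus vehicle, in Atf6a-/- animals, from 3 animals per group. *Atf6* itself, the targeted gene, read 7.03, 7.15 and 7.79 in the Atf6a-/- vehicle animals and 10.19, 9.76 and 10.50 in the Atf6a-/- TM animals. All TM values lay above all vehicle values, and the rise was 2.82 (standard error 0.24, adjusted p = 4.71e-06), beside 1.94 in wild-type animals. Where on the transcript the 3 *Atf6* probesets lie relative to the deleted part was not analysed here, so this signal does not check the genotype. The hepatocyte genes *Alb* and *Ttr*, which encode albumin and transthyretin, read from 14.85 to 14.95 and from 14.49 to 14.67 in the 6 Atf6a-/- arrays, so the labelled tissue carried its defining markers. Arrays of a group correlated at 0.987 to 0.996. Y-linked signal was present in 1 array of each group, in vehicle animal 3 and TM animal 2 of the Atf6a-/- animals.

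TM changed 2387 genes upward, 13.1% of all genes, and 1493 downward (8.21%). The increases were the larger ones, with a median of 1.02 among genes that rose and -0.88 among those that fell. By over 2-fold, 1240 genes rose and 564 fell, and by over 4-fold, 238 and 76. By probesets, 4757 rose (10.6%) and 2680 fell (5.95%). The median of all genes lay at -0.10, and with quantile normalization the split of genes became 2014 higher and 1924 lower. Bright genes moved most often. When genes were ranked by mean signal into 4 classes, 23.3% rose and 16.6% fell in the highest, against 0.528% and 0.374% in the lowest. The 3 TM animals responded alike. Among probesets called without the animal in question, the median shift of TM animal 1 was 0.98 for those that rose and -0.79 for those that fell. It was 0.88 and -0.78 in TM animal 2 and 1.19 and -0.96 in TM animal 3. From 98.8% to 99.6% of these probesets moved in the same direction in the left-out animal. Its shift was taken against the same 3 vehicle animals that entered the calls, so this agreement is not independent of them. In wild-type animals 1623 genes rose (8.92%) and 1255 fell (6.9%), or 7.1% and 4.95% of the probesets. Of those, 83.2% also rose and 72.6% also fell in Atf6a-/- animals, and these made up 56.6% and 61.0% of the Atf6a-/- calls. The median absolute log2 difference over all probesets was 0.21 in Atf6a-/- and 0.15 in wild-type animals.

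The largest increases belonged to stress-induced transcription factors and their targets. *Atf3*, a bZIP repressor of the stress response, read 5.31, 5.41 and 5.20 with vehicle and 12.52, 12.42 and 12.36 with TM, a rise of 7.13 (standard error 0.16, adjusted p = 1.40e-10) or 140-fold. *Nupr1*, a small chromatin-associated stress protein, went from 5.67, 5.92 and 5.34 to 12.05, 12.31 and 12.73 (6.71, standard error 0.25, adjusted p = 1.39e-08). *Trib3*, a pseudokinase that binds ATF4 and AKT, went from 7.19, 7.85 and 6.82 to 13.64, 13.65 and 13.47 (6.30, standard error 0.50, adjusted p = 2.75e-06). In all 3 genes the groups were separated by more than 5 units, whereas animals of a group lay within about 1 unit. *Ddit3*, which encodes CHOP, the factor tied to death under ER stress, moved from 6.83, 6.85 and 6.85 to 12.89, 13.02 and 12.998 (6.13, standard error 0.10, adjusted p = 1.01e-11), with little spread. *Psat1*, an enzyme of serine synthesis, rose by 5.51 from a vehicle mean below the median of every array. The hepatokine gene *Fgf21*, whose product acts on fat tissue and brain, read 5.53, 4.92 and 6.27 with vehicle and 10.69, 9.87 and 11.33 with TM (5.06, standard error 0.46, adjusted p = 7.49e-06). The TM animals differed by over 1 unit there, but none overlapped a vehicle animal. The other 6 of the 12 largest increases were *Ifrd1* (5.14), *Bhlha15* (5.06), which encodes the secretory cell factor MIST1, *Gadd45a* (4.45) and *Cdkn1a* (4.15), which halt the cell cycle, the snoRNA host gene *Snhg1* (4.41) and the helicase gene *Ddx28* (4.07).

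**Figure D1:**
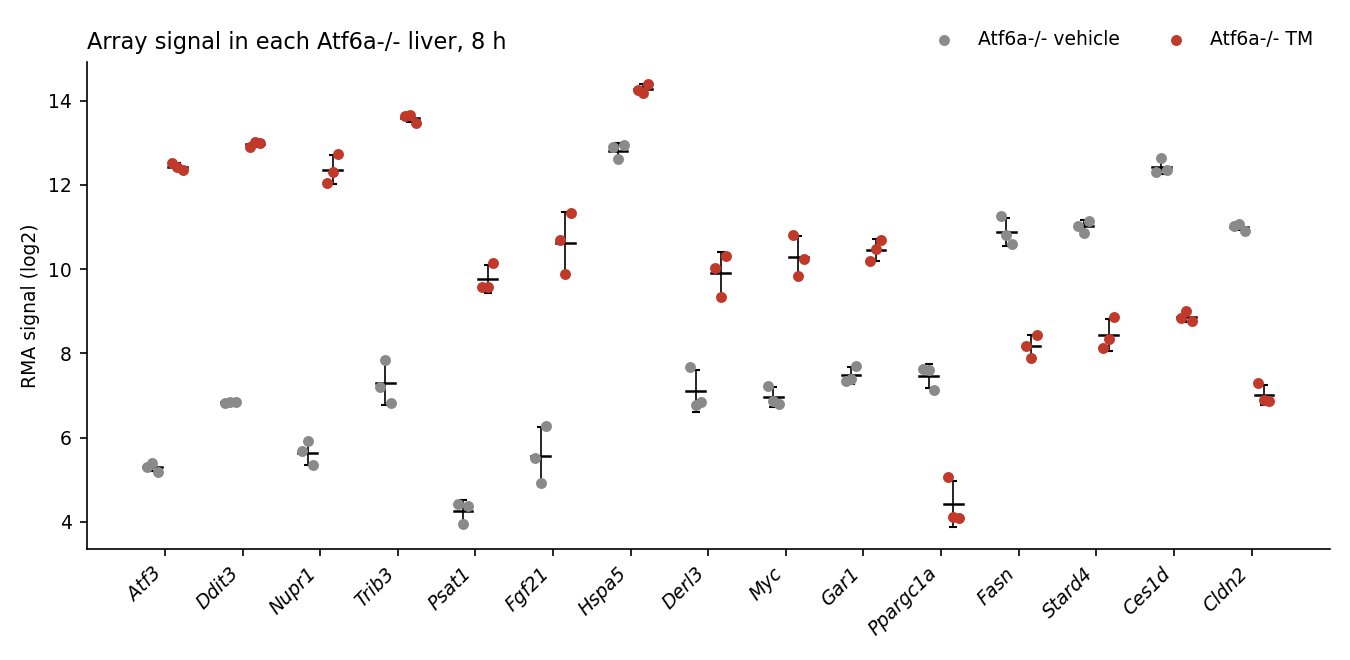
RMA signal (log2, y axis) of 15 genes in each Atf6a-/- liver, vehicle in grey and TM in red, with the mean and SD of 3 animals as black bars. In each of these genes the 3 TM animals lie wholly above or wholly below the 3 vehicle animals, from 7.13 units above for *Atf3* to 3.98 below for *Cldn2*.

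The mRNAs of sensors and factors of the UPR rose after TM without ATF6α. Of 29 measured UPR sensors and transcription factors, 16 rose and 2 fell (0 fell without vehicle animal 2 or 3 or TM animal 2, and 0 with all 4 Y-positive arrays left out), with a median of 0.74 against -0.10 for all genes. *Eif2ak3*, which encodes PERK, went from 7.26, 7.26 and 7.62 to 9.45, 9.56 and 9.64 (2.16, standard error 0.14, adjusted p = 8.89e-07). *Ern1*, which encodes IRE1α, went from 9.16, 8.95 and 9.62 to 11.77, 11.19 and 11.44 (2.22, standard error 0.19, adjusted p = 4.38e-06). No TM animal overlapped the vehicle animals in either gene. *Atf6b*, the paralog of the deleted gene, rose by 1.33. *Atf4* rose by 2.34, its bZIP partner *Cebpg* by 1.74, and *Ppp1r15a*, the phosphatase subunit that reverses eIF2α phosphorylation, by 3.68 (adjusted p = 3.86e-10). *Xbp1* was not called. It read 12.65, 12.34 and 12.47 with vehicle and 12.67, 12.69 and 12.71 with TM, a difference of 0.21 (adjusted p = 0.123), and these probesets were not resolved into spliced and unspliced mRNA. Of 6 mRNAs known as substrates that IRE1α cleaves, all had values below 0, as had 11658 of all 18193 genes. Of the 6, 1 fell, *Hgsnat*, for a lysosomal acetyltransferase (-1.26). Probesets of several of these genes differed in size. *Ern1* ranged from -0.13 to 2.22 over 5 probesets, *Eif2ak3* from 0.41 to 2.16 over 3 and *Ddit3* from 1.09 to 6.13 over 2.

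Genes known as targets of ATF4 and CHOP rose too. Of 25 measured targets of these factors, 14 rose and 1 fell (median 1.08). Besides *Trib3*, *Nupr1* and *Ifrd1* they include *Chac1* (2.12), which degrades glutathione, *Ddit4* (3.80) and *Sesn2* (1.74), inhibitors of mTORC1 signalling, and *Sqstm1* (1.51), the autophagy receptor p62. Of 17 genes of serine, one-carbon, asparagine and proline synthesis, 6 rose and 3 fell. *Aldh18a1*, which starts proline synthesis, rose by 3.53, *Psph* by 1.45 and *Mthfd2*, of mitochondrial folate metabolism, by 1.5, while *Shmt1*, of cytosolic folate metabolism, fell by 1.11. *Phgdh*, the first enzyme of serine synthesis, was at -0.40 (adjusted p = 0.0371), within 1.5-fold, and was called at -0.61 without the 4 arrays with Y-linked signal. *Asns*, for asparagine synthetase, read 6.98, 7.10 and 10.74 with vehicle and 10.22, 11.12 and 10.57 with TM. Vehicle animal 3 lay within the range of the TM animals, and the call (2.37, standard error 0.79, adjusted p = 0.0416) was lost without any 1 of vehicle animals 1 and 2 or TM animals 1 to 3 (adjusted p from 0.0642 to 0.164), and without wild-type vehicle animal 3 or any wild-type TM animal. Of 20 amino acid transporter genes, 8 rose and 2 fell. *Slc7a1*, for cationic amino acids, rose by 3.41, *Slc3a2*, the shared heavy chain, by 1.78 and *Slc38a2* by 1.48.

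Promoter sequences of several of these genes are shown because the bases that ATF4 and ATF6 are known to bind could be looked up in them. They run over the 250 bases before the RefSeq start (GRCm38.p6), 5′ to 3′ on the strand of the gene, and the matched bases are in capitals. The C/EBP-ATF response element was searched as TTGCATCA, the ER stress response element as CCAAT and CCACG with 9 bases of any kind between them, each on both strands. They were found before 0.918% and 0.13% of all 27025 genes with a promoter. By size of t, 6 genes were chosen from part of some lists, and all 6 belong to the UPR and ATF4 lists. They are not the 6 with the largest t of these lists. *Ppp1r15a*, with a larger t than *Nupr1*, was not among them. Of the 6, *Atf3* and *Nupr1* hold the first element, each with its offset at -110 from the start. *Ddit3*, *Atf4*, *Eif2ak3* and *Sesn2* hold neither in this window. *Fgf21*, which holds the first element too, and *Hspa5* and *Derl3*, which hold the second element, were chosen after their values were seen.
Atf3, chr1:191183334-191183583, minus strand: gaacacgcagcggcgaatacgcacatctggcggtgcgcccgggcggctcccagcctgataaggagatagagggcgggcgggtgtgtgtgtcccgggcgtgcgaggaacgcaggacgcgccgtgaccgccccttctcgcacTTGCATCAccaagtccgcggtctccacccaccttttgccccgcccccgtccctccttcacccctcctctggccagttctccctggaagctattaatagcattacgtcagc
Nupr1, chr7:126625471-126625720, minus strand: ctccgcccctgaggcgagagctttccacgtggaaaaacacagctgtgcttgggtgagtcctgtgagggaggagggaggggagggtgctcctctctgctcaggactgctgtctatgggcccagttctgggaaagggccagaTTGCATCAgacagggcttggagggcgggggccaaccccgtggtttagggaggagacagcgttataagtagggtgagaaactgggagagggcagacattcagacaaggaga
Fgf21, chr7:45615491-45615740, minus strand: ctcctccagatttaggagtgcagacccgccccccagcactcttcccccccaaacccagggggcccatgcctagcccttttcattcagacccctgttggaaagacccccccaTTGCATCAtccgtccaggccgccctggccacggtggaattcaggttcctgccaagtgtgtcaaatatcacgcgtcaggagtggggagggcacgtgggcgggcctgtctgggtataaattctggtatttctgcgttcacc
Hspa5, chr2:34771840-34772089, plus strand: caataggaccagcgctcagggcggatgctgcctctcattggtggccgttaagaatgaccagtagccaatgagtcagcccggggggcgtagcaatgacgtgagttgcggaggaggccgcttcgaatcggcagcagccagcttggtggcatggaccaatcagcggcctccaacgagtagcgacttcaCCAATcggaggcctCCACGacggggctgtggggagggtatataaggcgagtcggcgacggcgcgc
Derl3, chr10:75893148-75893397, plus strand: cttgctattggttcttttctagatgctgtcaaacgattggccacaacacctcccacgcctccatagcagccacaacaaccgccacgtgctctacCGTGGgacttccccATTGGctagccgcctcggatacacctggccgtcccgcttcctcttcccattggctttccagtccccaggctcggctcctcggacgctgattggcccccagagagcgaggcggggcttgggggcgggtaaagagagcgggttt
Of 19 genes of the ATF4 and CHOP list with a promoter, 4 (21.1%) hold the first element, and of 12 cytosolic tRNA synthetase genes 2 (16.7%). Of the 4, *Nupr1* and *Chac1* rose, and *Jdp2* (0.22) and *Vldlr* (0.98) were not called. The 2 tRNA synthetase genes rose. *Jdp2* and *Vldlr* were named after their values were seen. The second element lies before 5 of 19 ER chaperone genes (26.3%), 3 of 23 genes of disulfide bond formation (13%) and 2 of 24 genes of ER-associated degradation (8.33%). These 10 genes are taken up below. Of 1969 genes that rose in Atf6a-/- animals and have a promoter, 18 hold the first element (0.914%) and 10 the second (0.508%). Over all genes with a promoter the shares were 0.918% and 0.13%, and over those on the array 0.74% and 0.131%. Of 1213 genes that fell, 3 (0.247%) hold the first and 1 (0.0824%) the second. Of 3 more motifs searched, TGACGTCA stood before 1.77%, TGACGTGG before 0.603% and ATTGG and CCACG with 1 base between them before 0.037% of all genes. In the same order, the shares were 2.5%, 0.865% and 0.0484% of genes on the array. Among genes that rose they were 3.66%, 1.57% and 0.203%, and among genes that fell 1.65%, 0.33% and 0%. Whether any of these shares differ was not tested. A match describes the letters of the window only, and no match says nothing of the factor.

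ER chaperone genes still rose after TM in the absence of ATF6α. Of 23 chaperones and co-chaperones, 13 rose and 0 fell, with a median of 0.64. In wild-type animals 17 rose, with a median of 1.03. *Hspa5*, which encodes the ER HSP70 protein BiP, read 12.90, 12.61 and 12.93 with vehicle and 14.24, 14.17 and 14.40 with TM (1.45, standard error 0.19, adjusted p = 1.03e-04), beside 1.88 in wild-type animals. The difference of these responses, -0.42 (standard error 0.27, adjusted p = 0.626), was not called. *Dnajb9*, a BiP co-chaperone, rose by 2.37 in Atf6a-/- and 2.31 in wild-type animals, and *Fkbp11*, a prolyl isomerase, by 2.89 and 3.02. *Fkbp11* ranged from 0.27 to 2.89 over its 3 probesets. Others rose less. *Dnajb11* rose by 1.07 in Atf6a-/- and 2.61 in wild-type animals (difference -1.54, adjusted p = 0.00206), and *Sdf2l1* by 1.97 and 4.15 (difference -2.18, adjusted p = 0.00754). *Hsp90b1*, the ER HSP90 protein, was at 0.69 and 1.22 and *Dnajc3* at 0.82 and 2.07, with differences that were not called. Without TM animal 3, *Hsp90b1* was at 0.54 and not called. *Hyou1*, a nucleotide exchange factor of BiP, was not called (0.086, adjusted p = 0.741). Its brightest probeset overlapped between the groups, and its 3 probesets ranged from 0.086 to 1.89. As the mean of these probesets *Hyou1* was called, at 0.81 (adjusted p = 0.00315).

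Among 26 genes of disulfide bond formation, 10 rose and 1 fell. *Pdia4* was the clearest case of a lost response. It read 9.64, 9.52 and 9.60 with vehicle and 9.68, 9.82 and 9.98 with TM in Atf6a-/- animals (0.24, standard error 0.15, adjusted p = 0.259). In wild-type animals it read 9.36, 9.23 and 9.46 and 12.24, 12.88 and 12.36 (3.14, adjusted p = 6.25e-08). The groups of wild-type animals were far apart, those of Atf6a-/- animals lay side by side without overlap, and the difference of the responses was -2.91 (adjusted p = 5.79e-05). *Creld2* read 9.44, 8.79 and 9.12 with vehicle and 10.88, 10.97 and 11.38 with TM in Atf6a-/- animals, a rise of 1.96 (adjusted p = 2.19e-05), whereas it rose by 4.87 in wild-type animals (difference -2.91, adjusted p = 4.65e-04). The oxidase *Ero1a* rose by 2.20 in Atf6a-/- and 2.56 in wild-type animals, with no call for the difference (-0.37, standard error 0.26).

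Of 30 genes of ER-associated degradation, which carries misfolded proteins to the cytosol, 16 rose and 1 fell, against 21 and 0 in wild-type animals. *Derl3*, of the channel, read 7.68, 6.77 and 6.85 with vehicle and 10.03, 9.35 and 10.32 with TM (2.80, standard error 0.26, adjusted p = 7.95e-06). In wild-type animals it read 7.92, 7.54 and 7.62 and 13.58, 13.86 and 13.77, a rise of 6.05, and the difference was -3.25 (adjusted p = 0.00102). The TM animals of the 2 genotypes were over 3 units apart, though in both no TM animal overlapped the vehicle animals. The ubiquitin ligase gene *Syvn1*, which encodes HRD1, rose by 2.23 and 3.91 (difference -1.68, adjusted p = 0.00335), and its partner *Sel1l* by 1.42 and 3.11 (difference -1.69, adjusted p = 1.93e-04). *Edem1*, which reads trimmed glycans, was not called in Atf6a-/- animals (0.13) and rose by 1.11 in wild-type animals (difference -0.98, adjusted p = 0.017). That difference was not called without Atf6a-/- vehicle animal 2 or wild-type TM animal 2, at -0.92 and -0.94. Nor was it called without the 4 arrays with Y-linked signal (-0.88, adjusted p = 0.088). *Herpud1* and the conjugating enzyme *Ube2g2* rose by 1.31 and 2.45, beside 1.74 and 1.91. Of the 10 folding and degradation genes with an ER stress response element, 8 rose in Atf6a-/- animals. *Hspa5*, *Hsp90b1*, *Dnajc3*, *Pdia6* (1.03), *Ero1b* (1.49), *Creld2*, *Syvn1* and *Derl3* did, and *Calr* (0.47) and *Canx* were not called. *Pdia6*, *Calr* and *Canx* were named after their values were seen. In every one of the 10 the Atf6a-/- value was the smaller one. Over the 3 lists together, which hold 79 genes, 62 had a smaller value in Atf6a-/- than in wild-type animals, against 53.3% of all genes.

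**Figure D2:**
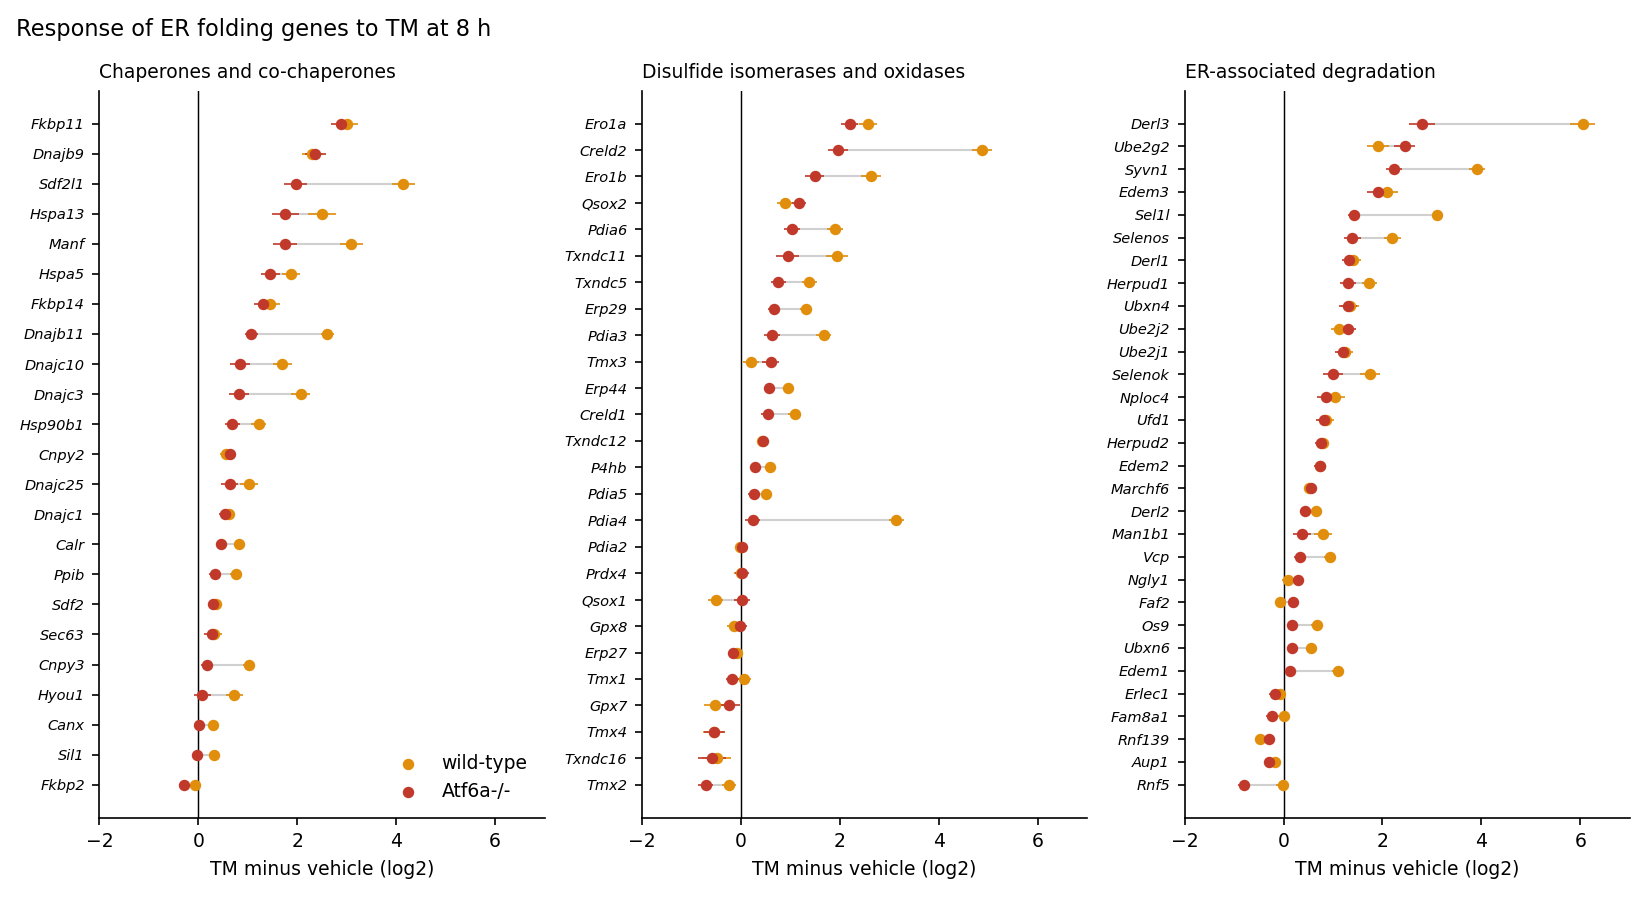
Log2 difference of TM and vehicle (x axis) for each gene of the ER chaperone, disulfide and ER-associated degradation lists, Atf6a-/- animals in red and wild-type animals in orange, with standard errors of limma and a grey line between them. Points of *Hspa5*, *Dnajb9* and *Fkbp11* lie close together, and those of *Pdia4*, *Creld2* and *Derl3* differ by -2.91 to -3.25.

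Genes for entry into and export from the ER rose broadly. Of 24 genes of the translocon, signal recognition particle and signal peptidase, 15 rose and 1 fell (median 0.70). The receptor subunits *Srprb* and *Srpr* rose by 2.37 and 1.18 and the channel gene *Sec61a1* by 0.98, while *Tram2* fell by 1.67. Of 50 genes of transport between ER and Golgi, 32 rose and 1 fell (median 0.79), beside 35 in wild-type animals. *Arfgap3*, which uncoats retrograde vesicles, read 7.55, 7.21 and 7.64 with vehicle and 10.68, 10.48 and 10.87 with TM (3.21, standard error 0.29, adjusted p = 7.03e-06). The COPII genes *Sec24d* and *Sec23b* rose by 1.60 and 1.38, *Stx5a*, a SNARE, by 2.08, and *Trappc1*, of the tether TRAPP, fell by 1.27. Of 40 genes that build or attach N-linked glycans, 18 rose and 0 fell. *Dpagt1*, whose product is the enzyme that TM inhibits, rose by 0.78 (standard error 0.12, adjusted p = 4.94e-04), the catalytic subunits *Stt3a* and *Stt3b* by 0.84 and 0.88 and *Alg12* by 1.40. *Gfpt1*, which supplies hexosamine, rose by 3.43, from 8.71, 8.27 and 8.39 to 11.67, 11.78 and 12.20. In contrast, none of 31 proteasome subunit genes was called, with values from -0.36 to 0.47 and a median of -0.11, although 6 of them had an adjusted p under 0.05 and 9 an unadjusted one.

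Ribosome biogenesis was the list with the largest share of called genes. Of 60 genes, 55 rose and 0 fell, with a median of 1.43, and in 56 every TM animal lay above every vehicle animal, against 20.8% of all genes. *Ddx52*, an RNA helicase of the small subunit, went from 7.51, 7.73 and 7.77 to 10.88, 10.90 and 11.03 (3.26, standard error 0.12, adjusted p = 1.39e-08). *Gar1*, of box H/ACA particles that modify rRNA, went from 7.35, 7.38 and 7.70 to 10.18, 10.47 and 10.70 (2.98, adjusted p = 3.45e-07). Neither gene had overlapping animals. *Nip7* rose by 2.64, *Nop56*, of box C/D particles, by 2.12, the helicase *Ddx21* by 2.31 and *Polr1b*, a subunit of RNA polymerase I, by 1.56. In wild-type animals 45 rose, with a median of 0.83, and in 56 of the 60 genes the Atf6a-/- value was the larger one, against 46.6% of all genes. The difference of the responses was called in 4 members. Ribosomal protein genes shifted less. Of 43, 2 rose and 0 fell, 39 had values above 0, 39 were larger in Atf6a-/- than in wild-type animals and 17 had all TM animals above all vehicle animals, with a median of 0.17. These were *Rps25* (0.91) and the probeset of *Rpl12*, which read 5.24, 5.10 and 4.87 with vehicle and 7.71, 7.73 and 8.38 with TM, near the array median with vehicle. Of 18 cytosolic tRNA synthetase genes, 16 rose and 0 fell (median 1.02). *Rars*, *Gars* and *Lars*, for arginine, glycine and leucine, rose by 1.97, 1.66 and 1.68, and *Wars*, for tryptophan, by 0.99, less than the 2.10 in wild-type animals (difference -1.11, adjusted p = 0.00672). Of 16 mitochondrial synthetase genes, 7 rose and 1 fell (3 rose with quantile normalization), with *Ears2* at 1.58, and the one that fell was *Lars2* (-0.96). As means of all their probesets these 2 were at 0.41 and -0.42 and not called.

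**Figure D3:**
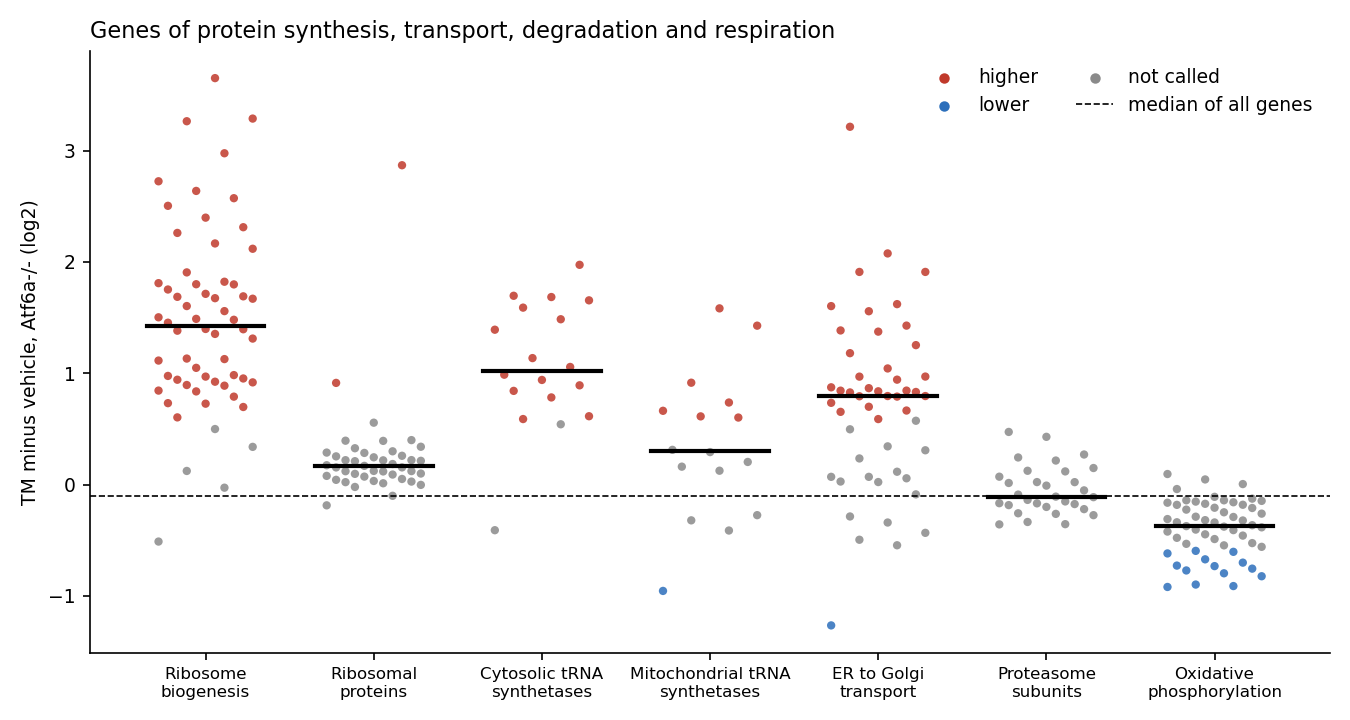
Log2 difference of TM and vehicle in Atf6a-/- animals (y axis) for each gene of 7 lists, red where it rose, blue where it fell and grey where it was not called, with the list median as a bar and the median of all genes, -0.10, as a dashed line. All but 1 gene of ribosome biogenesis and all but 1 cytosolic tRNA synthetase gene sit above the line, proteasome subunits around it and most subunits of oxidative phosphorylation below it.

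Immediate early genes split. Of 25, 7 rose and 1 fell. *Jun*, of the AP-1 factor, read 6.76, 6.84 and 7.22 with vehicle and 10.35, 10.03 and 10.05 with TM (3.21, standard error 0.25, adjusted p = 2.37e-06), and *Myc* read 7.24, 6.87 and 6.81 and 10.80, 9.83 and 10.24 (3.32, standard error 0.20, adjusted p = 5.16e-07). In wild-type animals they rose by 1.09 and 1.5, and the differences were 2.12 (adjusted p = 0.0122) and 1.82 (adjusted p = 0.00923). All Atf6a-/- TM animals lay above all wild-type TM animals in both genes. *Jund* rose by 1.43, while *Fos* (1.05, adjusted p = 0.0745) and *Egr1* (0.61, adjusted p = 0.59) were not called. *Fos* was called with the 6 Atf6a-/- arrays alone (adjusted p = 0.0374) and without wild-type vehicle animal 1 or 2 (adjusted p = 0.0295 and 0.0421). Of 33 genes linked to p53, stress and apoptosis, 8 rose and 6 fell. *Gadd45a* read 6.10, 6.16 and 5.93 with vehicle and 10.25, 10.39 and 10.91 with TM. Its rise exceeded that of wild-type animals, 2.64, by 1.81 (adjusted p = 0.0113). *Cdkn1a*, for the inhibitor p21, *Trp53inp1* and *Mdm2* rose by 4.15, 1.83 and 1.17, and *Birc3*, an inhibitor of apoptosis, fell by 1.26. Of 40 genes of the cell cycle and DNA replication, 5 rose and 3 fell, close to the shares over all genes (13.1% and 8.21%). *Rrm2*, of ribonucleotide reductase, and *Mcm7*, of the replicative helicase, rose by 2.90 and 1.97, and the cyclin gene *Ccnd3* fell by 1.06 (-0.52 and not called as the mean of its 3 probesets). Cytosolic heat shock genes did not follow those of the ER. Of 23, 3 rose and 5 fell, with *Hsp90aa1* at -1.22 and *Hspa4l* at -1.02. Of 25 antioxidant genes of NRF2, 3 rose and 6 fell (10 without the 4 arrays with Y-linked signal), with *Hmox1* at 1.25 and *Nqo1* at -1.18. Among 41 genes of autophagy and lysosomes 9 rose and 2 fell (from 0 without TM animal 3 to 5 with centring on *Btf3* and *Ppia*), with *Atg13* at 1.74, *Mitf* at 1.25 and *Gabarapl1* at 1.16.

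**Figure D4:**
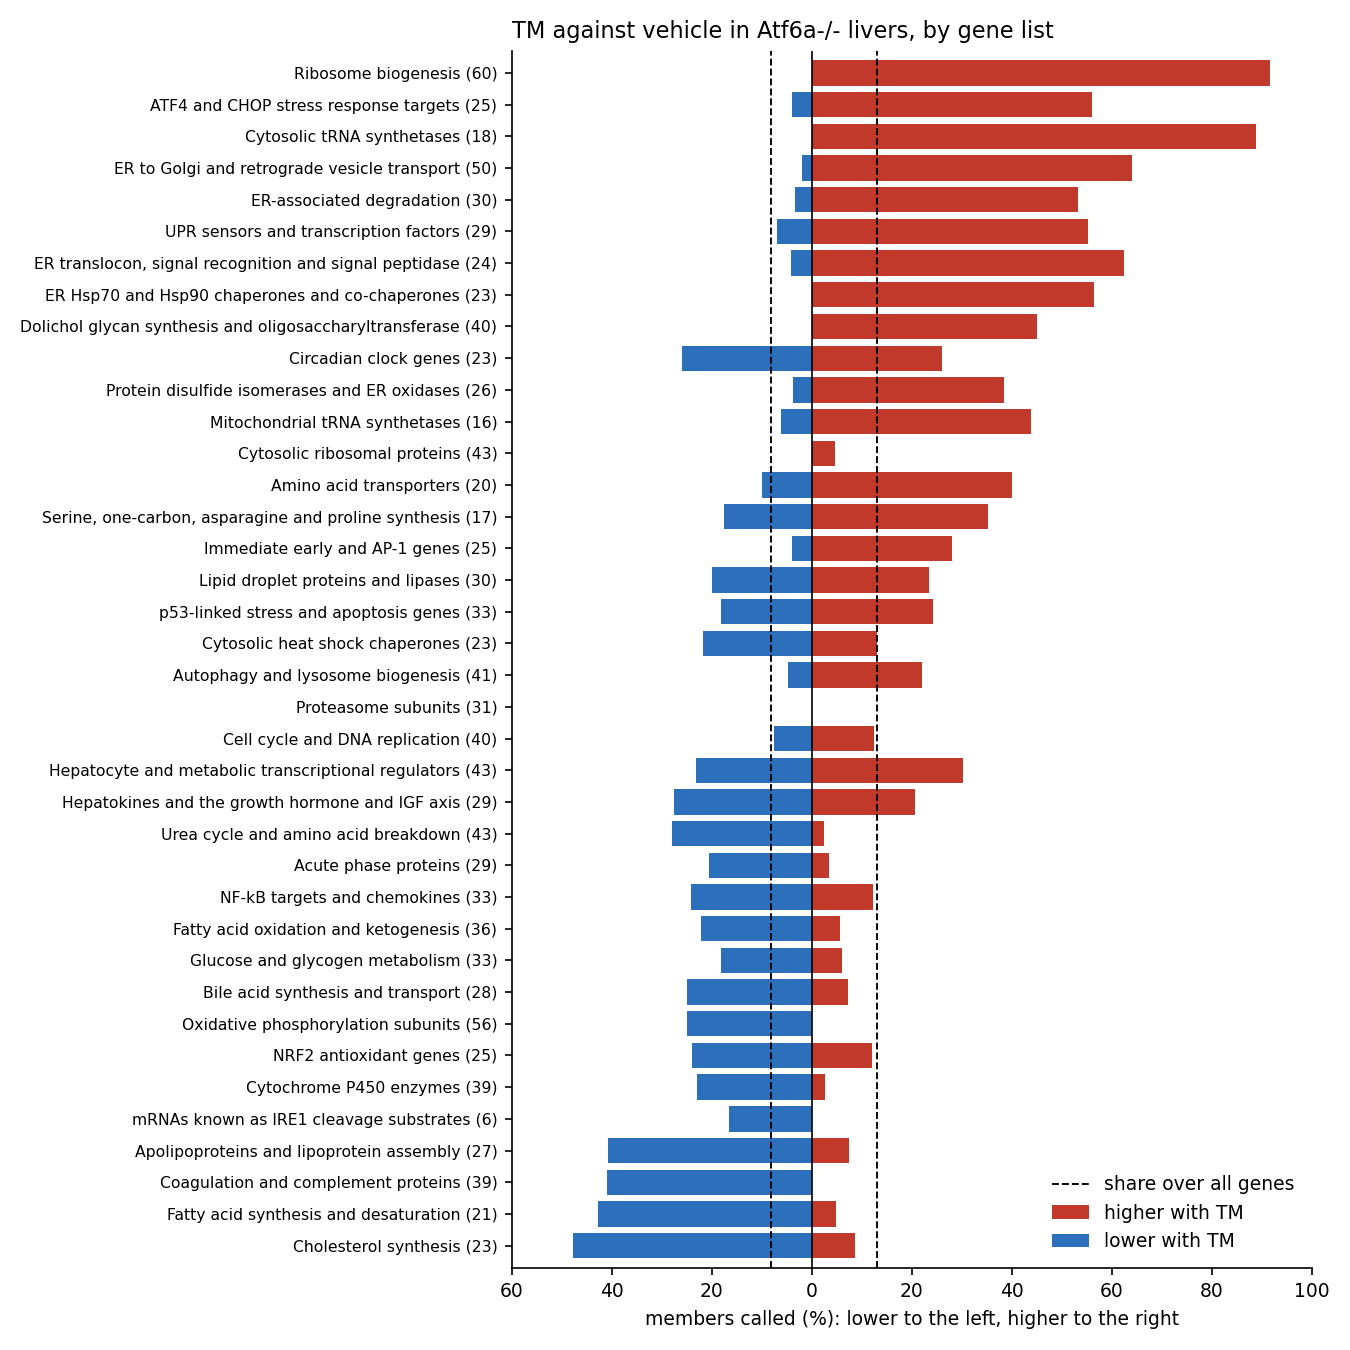
Percent of the measured genes of each list (number in brackets) that rose with TM in Atf6a-/- animals, in red to the right, and that fell, in blue to the left, ordered by the list median. Dashed lines mark the shares over all genes, 13.1% and 8.21%. Lists of the UPR, of protein synthesis and of the secretory pathway stand at the top, and lists of lipid, sterol and plasma protein genes at the bottom.

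The largest decreases reached 3.98 on the log2 scale. *Cldn2*, a tight junction claudin of hepatocytes, read 11.03, 11.06 and 10.91 with vehicle and 7.29, 6.89 and 6.88 with TM (-3.98, standard error 0.14, adjusted p = 1.39e-08). *Igfals*, the subunit that keeps IGF1 in the circulation, went from 10.84, 10.78 and 10.69 to 7.52, 7.25 and 6.77 (-3.59, standard error 0.15, adjusted p = 2.44e-08). The carboxylesterase genes *Ces1g* and *Ces1d* fell by 3.72 and 3.55, the latter from 12.29, 12.63 and 12.36 to 8.84, 9.01 and 8.77. In these genes all TM animals lay over 3 units below all vehicle animals. The spread was wider in *Acot3*, a peroxisomal thioesterase (12.25, 12.24 and 9.34 with vehicle, 7.26, 6.42 and 8.26 with TM, -3.96, standard error 0.86), and in *Keg1* (-3.97, standard error 0.74), where the groups came closer without overlap. The other 6 of the 12 largest decreases were *Cnmd*, *Nmrk1*, *Nxpe2*, *Nrep*, *Dclk3* and *Rnf186*, from -3.68 to -3.40. In 5 of them, all but *Nrep*, the TM mean lay below the median of every array (lowest 4.98).

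Hepatocyte transcription factors moved in opposite directions. Of 43 transcriptional regulators of hepatocytes and metabolism, 13 rose and 10 fell. *Ppargc1a*, for the coactivator PGC-1α of oxidative metabolism, read 7.63, 7.60 and 7.12 with vehicle and 5.06, 4.13 and 4.09 with TM (-3.03, standard error 0.33, adjusted p = 2.68e-05). *Ppara*, the nuclear receptor of fatty acid oxidation, read 11.77, 11.40 and 11.30 and 10.20, 9.62 and 9.69 (-1.65, standard error 0.27, adjusted p = 6.11e-04), and *Cebpa* fell by 0.86 (standard error 0.11, adjusted p = 9.05e-05). None of the 3 genes had overlapping animals, and their wild-type values were close, at -2.90, -1.67 and -1.13. *Srebf1*, for the lipogenic factor SREBP-1, fell by 2.09, beside -3.68 in wild-type animals. *Hnf4a*, the central factor of hepatocyte identity, rose from 12.04, 12.29 and 12.57 to 13.37, 13.34 and 13.02 (0.94, standard error 0.15, adjusted p = 6.03e-04). All 4 of its probesets rose, by 0.94 to 1.28. Its response in wild-type animals, 0.36, was not called, nor was the difference (0.58, standard error 0.22, adjusted p = 0.304). *Rora* and *Rxrb*, for nuclear receptors, rose by 2.30 and 1.54, beside 1.32 and 0.85 in wild-type animals.

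Lipid genes fell in several lists. Bright genes fell more often in general, 16.6% in the brightest of the 4 classes against 8.21% of all genes. Whether the lipid lists depart from genes of like signal was not tested. Of 21 genes of fatty acid synthesis, 9 fell and 1 rose (median -0.57). *Fasn*, for fatty acid synthase, read 11.25, 10.80 and 10.61 with vehicle and 8.17, 7.90 and 8.43 with TM (-2.72, standard error 0.21, adjusted p = 2.20e-06), beside -1.47 in wild-type animals (difference -1.25, adjusted p = 0.0692, not called). That difference was called without the 4 arrays with Y-linked signal (-1.36, adjusted p = 0.0302), with a covariate of Y-linked genes and Xist (-1.26, adjusted p = 0.00556), with centring on *Btf3* and *Ppia* (-1.28, adjusted p = 0.0491) and without wild-type TM animal 1 (-1.45, adjusted p = 0.0277). The desaturase genes *Fads1* and *Fads2* fell by 1.07 and 1.34. Of 23 genes of cholesterol synthesis, 11 fell and 2 rose (median -0.65). *Idi1*, which isomerises isopentenyl diphosphate, fell by 2.42, and *Insig1*, which retains SREBP in the ER, by 1.13. *Stard4*, a sterol carrier, read 11.03, 10.87 and 11.15 with vehicle and 8.13, 8.35 and 8.87 with TM in Atf6a-/- animals (-2.57, adjusted p = 2.74e-06), with no overlap, but 11.16, 10.99 and 10.55 and 10.85, 11.29 and 11.37 in wild-type animals (difference -2.84, adjusted p = 5.07e-04). Of 27 genes of apolipoproteins and lipoprotein handling, 11 fell and 2 rose. *Lrp1*, a receptor for remnants, fell by 2.22, *Apoc2*, the activator of lipoprotein lipase, by 1.40 and the sterol exporter *Abcg8* by 1.60, while *Angptl4*, an inhibitor of that lipase, rose by 2.62. *Mttp*, which loads lipid onto apolipoprotein B, was at -0.56 (adjusted p = 0.0031), within 1.5-fold, and was called with quantile normalization or centring on *Btf3* and *Ppia* (-0.62 and -0.63), or without vehicle animal 2 or TM animal 1 (-0.64 and -0.61). Of 36 genes of fatty acid oxidation, 8 fell and 2 rose (5 fell without Atf6a-/- vehicle replicate 1), and the median was -0.29. *Cpt2*, of the inner mitochondrial membrane, fell by 0.96 and *Decr2* by 0.87, whereas the thioesterase *Acot2* rose by 2.62, from 8.19, 7.66 and 7.52 to 11.06, 9.70 and 10.46. Of 30 genes of lipid droplets and lipases, 7 rose and 6 fell. The droplet protein genes *Plin2* and *Hilpda*, an inhibitor of lipolysis, rose by 1.08 and 1.27, and the lipase *Mgll*, *Cideb* and the fatty acid binding protein *Fabp2* fell by 1.90, 1.03 and 2.12. *Cidec*, which fuses droplets, read 3.71, 4.34 and 4.25 with vehicle and 6.39, 4.55 and 5.84 with TM. TM animal 2 was close to the vehicle animals, and the call (1.49, standard error 0.42, adjusted p = 0.0179) was lost without vehicle animal 1, TM animal 1 or TM animal 3 (values 1.30, 1.09 and 1.37).

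Oxidative phosphorylation genes had small values, mostly below 0, with little spread. Of 56 subunits, 14 fell and 0 rose, with a median of -0.37. In 45 of them all TM animals lay below all vehicle animals, against 29.6% of all genes. By complex, leaving out 1 gene of none, the median was -0.46 over 27 genes of complex I, -0.41 over 4 of complex II, -0.18 over 7 of complex III, -0.29 over 9 of complex IV and -0.39 over 8 of ATP synthase. *Ndufa5* of complex I read 11.34, 11.28 and 11.40 with vehicle and 10.33, 10.50 and 10.49 with TM (-0.90, standard error 0.083, adjusted p = 8.14e-06), and *Sdhd* of complex II fell by 0.91. In wild-type animals 0 rose, 4 fell, and the difference of the responses was called in 0 (limma), with an unadjusted p under 0.05 in 4.

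Genes of plasma proteins and detoxification fell in number, but many of them are bright. In Atf6a-/- vehicle animals the mean signal was 12.27 to 12.43 over the coagulation and complement list and 10.58 to 10.87 over the P450 list. Among genes of the brightest of the 4 classes, which starts at 8.51, 16.6% fell, against 8.21% of all genes. Whether these lists depart from genes of like signal was not tested. Of 39 genes of coagulation and complement, 16 fell and 0 rose (median -0.55). *Hc*, which encodes complement C5, read 12.82, 12.92 and 13.25 with vehicle and 10.22, 10.95 and 10.40 with TM (-2.47, standard error 0.17, adjusted p = 1.15e-06). The lectin *Mbl1*, *F7* and *F13b*, for coagulation factors, fell by 1.57, 1.46 and 0.98. Of 29 acute phase genes, 6 fell and 1 rose (5 rose without the 4 arrays with Y-linked signal and 4 without TM animal 2), with *Serpina3n* at -1.19 and *Apcs*, for serum amyloid P, at 1.69. Among 29 genes of hepatokines and the growth hormone axis, 8 fell and 6 rose. *Igf1* fell by 0.79 and *Lect2* by 1.63, while *Igfbp1*, which sequesters IGF, went from 11.76, 10.89 and 11.24 to 13.93, 13.75 and 13.64 (2.47, standard error 0.55, adjusted p = 0.00472). Of 39 cytochrome P450 genes, 9 fell and 1 rose (15 fell without the 4 arrays with Y-linked signal), with *Cyp2c54*, *Cyp2c23* and *Cyp3a25* at -1.33, -1.12 and -0.81. Of 28 genes of bile acid synthesis and transport, 7 fell and 2 rose. *Akr1d1*, the steroid reductase of bile acid synthesis, fell by 2.28 and *Slc10a1*, the uptake carrier NTCP, by 0.96, and the phospholipid exporter *Abcb4* rose by 1.15. Of 43 genes of the urea cycle and amino acid breakdown, 12 fell and 1 rose. *Otc*, of the urea cycle, went from 12.88, 12.83 and 12.84 to 11.75, 11.99 and 11.73 (-1.03, standard error 0.11, adjusted p = 1.84e-05), and *Tat*, which breaks down tyrosine, rose by 1.03. Of 33 genes of glucose and glycogen, 6 fell and 2 rose, with *Gys2*, for liver glycogen synthase, at -1.04 and *Ldha* at -0.85. Clock genes changed in both directions, 6 up and 6 down of 23, with *Arntl* (2.56), for the activator BMAL1, and *Rora* up and *Usp2* (-2.03) and *Hlf* (-1.45) down.

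**Figure D5:**
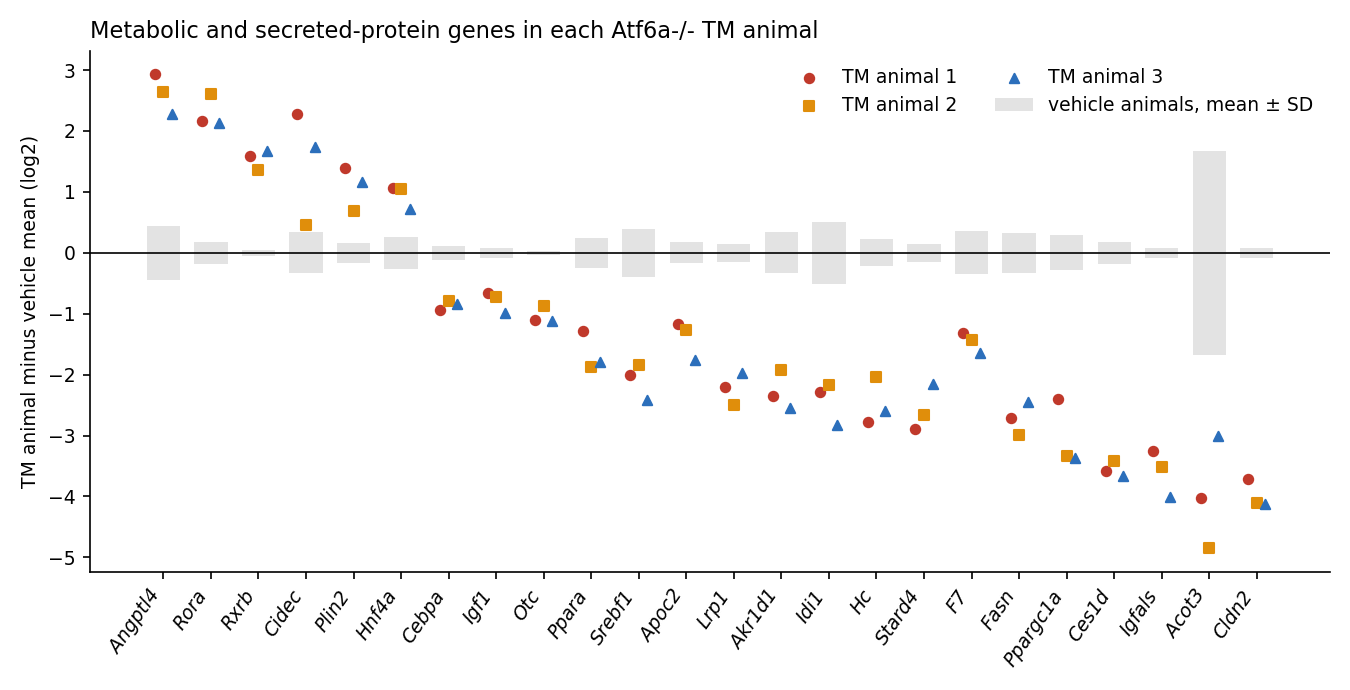
Signal of each Atf6a-/- TM animal minus the mean of the 3 Atf6a-/- vehicle animals (log2, y axis) for 24 metabolic and secreted-protein genes, with the SD of the vehicle animals as a grey bar around 0. All 24 are genes given as called, so the agreement in direction of the 3 animals follows in part from the choice. The animals lie close together for *Cebpa*, *Otc* and *Ces1d* and spread widely for *Acot3* and *Cidec*. Not shown are genes whose animals differ in sign, such as *Cyp4a12a* (-2.91, 3.86 and -3.66).

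Markers of other cells in the homogenate were mostly not called. Of 12 macrophage and Kupffer cell genes, 4 fell and 0 rose, and all 12 had values below 0, with a median of -0.51. Values lay below 0 in 11658 of all 18193 genes too. They did so in all 9 T and NK, 6 B, 5 bile duct and 3 red blood cell genes and in 7 of 8 neutrophil genes. Below 0 were also 8 of 10 endothelial, 8 of 10 stellate and 6 of 9 hepatocyte genes. The 4 macrophage genes that fell were *Marco* (-1.01), *Csf1r* (-0.80), *Adgre1* (-0.79) and *Lyz2* (-0.78). The count was 1 without vehicle animal 1, without vehicle animal 2 or without TM animal 2, 2 without TM animal 3 and 7 without vehicle animal 3 in turn, and *Csf1r* was also lost without any 1 wild-type TM animal. The mean signal over the 12 genes was 9.19 to 9.88 in the vehicle and 8.71 to 9.20 in the TM animals. In a homogenate, fewer cells of a type and less RNA per cell cannot be told apart. Beside these, 8 of 33 genes of NF-κB and chemokines fell and 4 rose, with *Cxcl12*, *Nfkbiz* and *Cxcl1* at -1.89, -1.78 and -1.68 and *Rela* and *Icam1* at 1.44 and 1.04. The part of macrophage RNA in that was not tested. Of 10 stellate cell genes 2 fell, *Lrat* (-1.54) and *Acta2* (-0.64), of 6 B cell genes 3 fell, *Cd22* (-0.73), *Cd79b* (-0.69) and *Ms4a1* (-0.65), of 5 bile duct genes 1 fell, *Krt19* (-0.73), and of 10 endothelial genes 1 rose, *Lyve1* (1.52). None of 8 neutrophil, 9 T and NK cell and 3 red blood cell genes was called (limma), and an unadjusted p under 0.05 was seen in 6, 3 and 1 of them. Of the neutrophil genes 3 fell with centring on *Btf3* and *Ppia*, without the 4 arrays with Y-linked signal or without vehicle animal 3, and 1 fell without TM animal 2 or 3. Of the endothelial genes 2 fell without vehicle animal 3. Of 9 hepatocyte markers, *Tat* rose and *Apob* fell (-0.83). Without a single Atf6a-/- animal the calls of *Acta2* (vehicle animal 1 or TM animal 2, -0.54 and -0.56), *Cd79b* (vehicle animal 2 or TM animal 3, -0.60 and -0.66), *Krt19* (vehicle animal 2, -0.58) and *Apob* (vehicle animal 1 or TM animal 2 or 3, -0.62, -0.81 and -0.69) ended. That of *Lyve1* ended without any Atf6a-/- animal but vehicle animal 2, and that of *Ms4a1* without vehicle animal 1 or 2, TM animal 1 or 2 or wild-type TM animal 2. As means of all probesets *Acta2*, *Cd22* and *Ms4a1* were at -0.17, -0.43 and -0.38 and not called.

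The response differed between the genotypes for 193 genes that were higher in Atf6a-/- animals (1.06%) and 136 that were lower (0.748%). Besides the genes of ER folding, several rose in wild-type animals and were not called in Atf6a-/- animals. *B230217C12Rik*, an unnamed transcript, was at -0.17 in Atf6a-/- and 3.80 in wild-type animals (difference -3.97, standard error 0.25, adjusted p = 1.93e-05). *Mxd1*, an antagonist of MYC, was at -0.34 and 1.44, *Tbccd1* at -0.20 and 1.86, *Prkcz*, an atypical protein kinase C, at -0.25 and 2.27, and *Cyld*, a deubiquitinase, at -0.066 and 1.51. The same held for *Phkg2* (0.55 and 2.16), a phosphorylase kinase subunit, *Tlcd1* (-0.30 and 1.11) and *Atp8b2* (-0.11 and 2.25). *Phkg2* lay just within 1.5-fold (adjusted p = 0.0017) and was called without vehicle animal 2 (0.59), TM animal 3 (0.60) or all 4 Y-positive arrays (0.61). In others the direction turned. Of the 1623 genes that rose in wild-type animals, 6 fell in Atf6a-/- animals, and of the 1255 that fell, 2 rose. The kinase gene *Pim2* read 6.39, 6.32 and 6.60 with vehicle and 5.72, 5.91 and 5.58 with TM in Atf6a-/- animals (-0.70), but 6.43, 6.50 and 6.31 and 8.98, 10.02 and 9.61 in wild-type animals (3.12, difference -3.83, adjusted p = 5.79e-05). Neither genotype had overlapping groups, but the Atf6a-/- call was lost without vehicle animal 3, TM animal 1 or TM animal 3 (-0.62, -0.70 and -0.62). *Rpain*, which imports replication protein A, was at -0.73 and 0.85, and *Mroh1* at -0.81 and 0.71, but as means of all their probesets the Atf6a-/- values were -0.54 and -0.41 and not called. *Nde1* and *Tes* were at 0.65 and 1.33 in Atf6a-/- and 4.01 and 4.90 in wild-type animals. The 2 genes that turned the other way were *Angptl8*, which inhibits lipoprotein lipase, and *Tkfc*, a triose kinase, at 1.27 and 0.77 in Atf6a-/- and -1.27 and -0.84 in wild-type animals. *Mvd*, an enzyme of cholesterol synthesis, was at -0.87 and 2.54. *Angptl8*, *Tkfc* and *Mvd* were named after their values were seen. Their Atf6a-/- calls were not firm. That of *Angptl8* ended without vehicle animal 3 or TM animal 2 (1.12 and 0.77) and without the 4 arrays with Y-linked signal (0.62), that of *Tkfc* without TM animal 1 (0.58) and that of *Mvd* without any Atf6a-/- animal but vehicle animal 1 or without wild-type TM animal 3 (-0.59 to -0.93). *Nde1* was not called without vehicle animal 1 or 2 or TM animal 1 or 3 (0.55 to 0.64). *Smarcb1*, a chromatin remodelling subunit, was at 0.28 in Atf6a-/- and -2.15 in wild-type animals. *Fzd7*, a WNT receptor, and *Plekhh3* were higher by 1.57 and 1.51, with values of 1.49 and 2.13 in Atf6a-/- animals. By probesets 295 were higher (0.655%) and 262 lower (0.582%), and these became 169 and 259 once the arrays were set to equal *Btf3* and *Ppia* signal. Single arrays moved them too. The higher ones were 115 and 122 without Atf6a-/- vehicle replicate 1 or 2, 156 without Atf6a-/- TM replicate 1, 106 without wild-type vehicle replicate 3 and 95 and 128 without wild-type TM replicate 2 or 3. The lower ones were 167 and 174 without Atf6a-/- vehicle replicate 1 or 2 and 165 and 172 without wild-type TM replicate 2 or 3.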

How the data were processed

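Livers of 12 mice, 3 for each genotype and treatment, were measured on Affymetrix mouse expression arrays. The deposited values are log2 signals per probeset that the authors made by RMA (affy), which corrects background, normalizes quantiles over all arrays and summarises probes, so a shift shared by all genes is not visible. Per-array depth does not apply and detection calls were not used here. Control probesets (64 of 45101) were left out. limma 3.58.1 in R 4.3.3 was fitted to all 4 groups together with empirical Bayes moderation, and p-values were adjusted by Benjamini-Hochberg over 45037 probesets. A call needed an adjusted p under 0.05 and over 1.5-fold. A gene was its brightest probeset that names it alone. Genes named were the 12 largest called changes in each direction without overlap, key genes marked in each list, the 4 of each list with the largest absolute t and the genes with the largest t of the difference of responses, and others are said to be chosen after their values were seen. The members, lists and rules were chosen with earlier results of these data known. List shares that depart from those over all genes may follow in part from that choice. The fits were checked on simulated data. Alternatives were normalization, centring, a replicate block, a covariate of Y-linked genes, single arrays left out, thresholds, filters and the methods' t-test. Promoters are from RefSeq, and motifs were searched in both strands. How the mutant allele was made is not given in the sources used here.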

Additional observations from a re-analysis of the deposited data

Results flagged for a closer look

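The responses of 17 of the genes named above are listed because the Atf6a-/- value differed from the wild-type value by the test of the difference itself (limma, Benjamini-Hochberg over all probesets). Lower in Atf6a-/- animals, as log2 differences of the responses, were *B230217C12Rik* (-3.97), *Pim2* (-3.83), *Derl3* (-3.25), *Creld2* (-2.91), *Pdia4* (-2.91), *Stard4* (-2.84), *Sdf2l1* (-2.18), *Sel1l* (-1.69), *Syvn1* (-1.68), *Dnajb11* (-1.54), *Wars* (-1.11) and *Edem1* (-0.98). Higher were *Jun* (2.12), *Myc* (1.82), *Gadd45a* (1.81), *Fzd7* (1.57) and *Plekhh3* (1.51). These are not all the named genes that differed by this test. Others, such as *Tes*, *Nde1* and *Smarcb1*, are given above only. Groups of 3 animals were too small for a formal test of outlying animals, but arrays were left out in turn. That ended the call of *Edem1*, as given above.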

How the results depend on the processing

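The labels do not say that same-numbered animals were paired, and the main fit did not pair them. Deviations from means of 3 animals, given next, cannot tell whether a litter or day was shared. The correlation of same-numbered TM and vehicle deviations was 0.157, -0.159 and -0.218 in Atf6a-/- and -0.181, -0.078 and 0.146 in wild-type animals. With the replicate block 4754 probesets rose and 2654 fell in Atf6a-/- animals, 3204 and 2212 in wild-type animals, and 255 and 238 differed between the responses, higher and lower. Leaving out 1 array at a time gave 4242 to 5022 higher and 2378 to 2799 lower in Atf6a-/- animals, 2734 to 3463 and 1790 to 2690 in wild-type animals, and 95 to 397 and 165 to 300 for the difference. With 2-fold as the threshold the counts were 2382 and 1011 in Atf6a-/-, 1559 and 841 in wild-type animals and 144 higher for the difference. Without a fold threshold 6169 fell in Atf6a-/- and 3890 in wild-type animals. The methods' t-test gave, after Benjamini-Hochberg, 2877 and 1322, 1375 and 775, and 39 and 79, and before it 1286 and 647 for the difference. At an unadjusted p under 0.05 by limma the difference held 1586 and 750. Fits on genes in place of probesets gave 2398 and 1508, 1640 and 1293 and 157 lower for the difference, and averaging the probesets per gene 1972 and 1216, 1360 and 1008, and 193 and 157. Higher in the difference were 169 probesets with arrays centred on *Btf3* and *Ppia*, 467 with a covariate of Y-linked genes and Xist and 444 without the 4 arrays with Y-linked signal. Fits on genes test fewer features than fits on probesets. Why the counts moved was not tested in any setting. Near 0, *Hyou1* by its brightest probeset was at -0.051 with quantile normalization and from -0.05 to 0.19 with 1 array left out, but as the mean of its probesets at 0.81 and called, so its value rests on the probeset taken. *Pdia4* was at -0.038 as the mean of its probesets. Over all genes whose values are given and all settings, a call in Atf6a-/- animals ended 87 times and arose 12 times. With 3 animals per group an exact permutation test cannot go below 0.1, and probesets near the array median, 4.98 to 5.11, give only part of a decrease.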
